A study of Mus musculus with 60 samples.

Results

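Endothelial cells line blood vessels, and their genes serve as marks of the capillaries in a muscle. The endothelial genes described here are Pecam1, Cdh5, Esam, Emcn, Kdr, Flt1, Tek, Tie1, Vwf and Egfl7. They were chosen by name, with earlier results of these data known. They were represented by 17 probe sets, all those whose platform annotation names 1 of the 10 genes alone, of 45037 probe sets for 18193 genes in all. Of the 17, 16 are on the A array of the mouse expression set and 1, for Flt1, is on the B array.

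MSTN-null mice lack myostatin, a secreted inhibitor of muscle growth, in every tissue and from conception. MSTN-null C57BL/6J mice were compared with wild-type C57BL/6J mice at 3 ages: as entire embryos of 13.5 d.p.c. (days post coitum), as hindquarters of 17.5 d.p.c. animals, and as the pectoralis muscle at d35 (35 days after birth). Each array held RNA pooled from 3 animals of 1 genotype, and each genotype had 5 pools at each time point. The labels name no treatment. The tissue changes with age, so levels were compared between genotypes within a time point only. The pectoralis was studied because it gains the most mass of the muscles examined in these animals, and it is a mainly fast-twitch muscle.

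Skeletal muscle fibres are served by a capillary bed whose density follows the oxidative capacity of the fibres: slow and oxidative fibres have more capillaries around them than fast glycolytic fibres. Vascular endothelial growth factor acts on endothelial cells through the tyrosine kinase receptors encoded by Kdr and Flt1, and the angiopoietins act through the Tek receptor and its partner Tie1. Neighbouring endothelial cells are held together by proteins such as VE-cadherin (Cdh5), Pecam1 and Esam. Vwf and Egfl7 are secreted by the endothelium, and Emcn is a sialomucin of its capillary and venous surface.

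Endothelial promoters are commonly bound by ETS factors such as Erg and Fli1, whose core site is GGAA. The RefSeq promoter table held 8 promoters for 6 of the 10 genes (Emcn, Kdr, Flt1, Tek, Tie1 and Egfl7). The 250 bases before the start of Tie1 and of the most upstream Egfl7 transcript are shown, because these are the windows that lie wholly outside the annotated gene. Bases are from GRCm38.p6, 5′ to 3′ on the strand of the gene, with each GGAA, or TTCC for the other strand, in capitals; the 2 words cannot overlap each other.
Tie1, chr4:118489850-118490099, minus strand: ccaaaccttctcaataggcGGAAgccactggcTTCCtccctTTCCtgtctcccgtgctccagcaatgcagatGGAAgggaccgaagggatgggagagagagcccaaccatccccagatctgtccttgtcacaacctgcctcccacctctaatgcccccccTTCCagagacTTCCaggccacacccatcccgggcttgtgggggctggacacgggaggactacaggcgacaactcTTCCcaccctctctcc
Egfl7, chr2:26580833-26581082, plus strand: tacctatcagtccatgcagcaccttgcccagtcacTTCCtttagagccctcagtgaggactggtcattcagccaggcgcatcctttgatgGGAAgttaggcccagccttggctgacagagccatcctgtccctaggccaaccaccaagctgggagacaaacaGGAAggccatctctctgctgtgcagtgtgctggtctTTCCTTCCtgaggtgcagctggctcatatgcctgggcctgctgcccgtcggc
The Tie1 window held 7 matches, a number reached by 3.82% of the 32851 promoters in the table. This Egfl7 window held 5 matches, reached by 18.0%, and the windows of the other 2 Egfl7 starts held 3 (reached by 54.7%) and 1 (reached by 93.4%). At least 1 match was present in 93.4% of all promoters, where the median was 3. The windows of Kdr, Flt1 and Emcn held 4 matches each (reached by 33.4%) and that of Tek held 2 (reached by 76.8%). The windows of Kdr and Flt1 lay wholly inside the annotated gene, that of Tek for 203 of its 250 bases and that of Emcn for 16. A match is a description of these letters and not a mapped binding site. On the same build Tek spans chr4:94739086-94874976, Tie1 chr4:118471191-118489849, Kdr chr5:75932827-75979072, Flt1 chr5:147561604-147726438, Vwf chr6:125552948-125686679 and Egfl7 chr2:26581083-26592682.

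In the d35 pectoralis, all 10 endothelial genes had lower mean levels in MSTN-null pools than in wild-type pools when each was read by its brightest probe set. Vwf, Tie1, Tek and Kdr fell, and the other 6 genes did not pass the test. The differences ran from -0.42 to -0.13 on the log2 scale, with a median of -0.20. Over all 18193 genes the median difference was 0.01, and 45.8% of genes had a negative one. A probe set was called where the Storey q-value of limma's test, adjusted over all 45037 probe sets of that time point, was under 0.05. At this threshold 6.02% of all genes were called at d35, and 3.31% of all genes were called as lower in MSTN-null. By Benjamini-Hochberg adjustment 3 of the 10 genes were called, the call of Kdr being lost (adjusted p = 0.0760). The endothelial count was 4 of 10 in the full comparison, 2 without MSTN-null pool 2, and 1 without MSTN-null pool 1, MSTN-null pool 3, wild-type pool 1 or wild-type pool 3. In each of the cases with 1 gene called, that gene was Vwf.

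**Figure D1:**
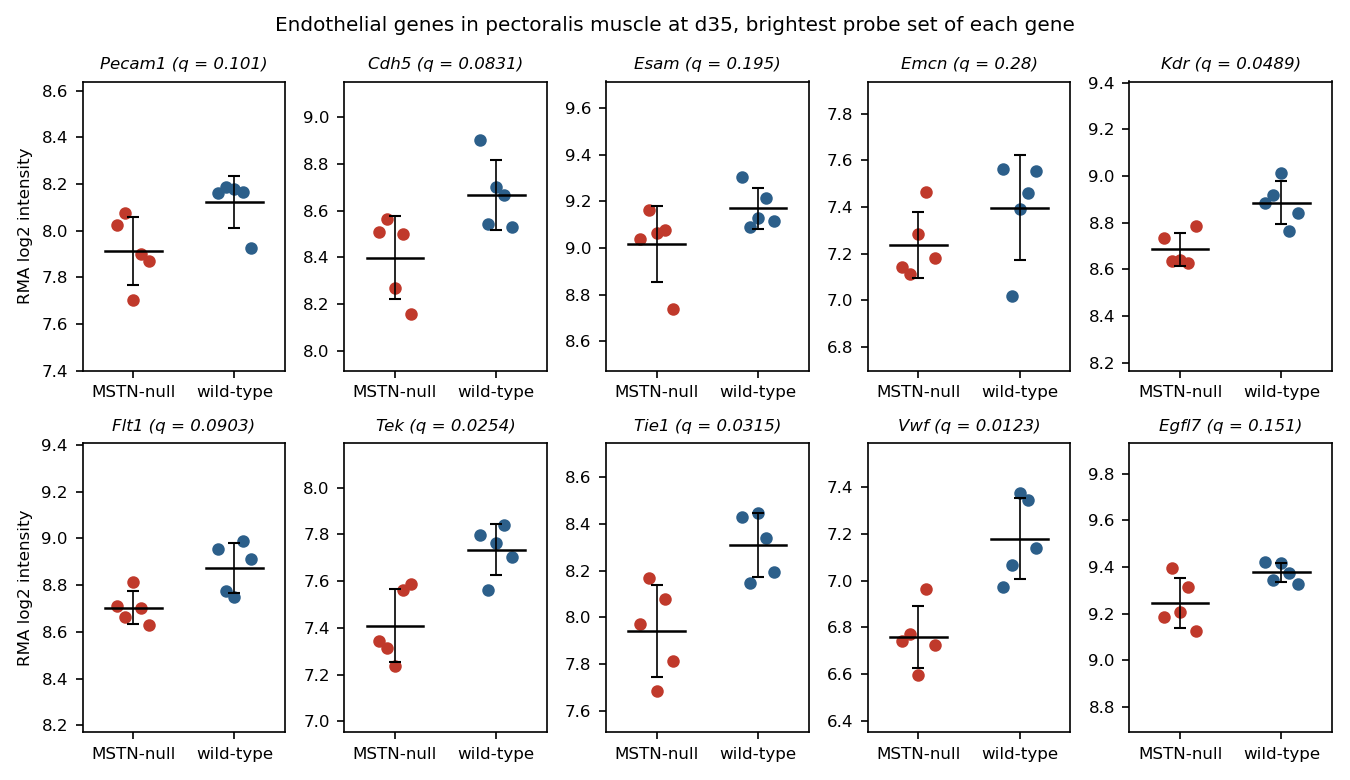
RMA log2 intensity (y axis) of the 10 endothelial genes in pectoralis muscle at d35, with 1 point per pool of 3 animals, MSTN-null pools left of wild-type pools; lines are means, bars are SD over 5 pools, and each panel gives the q-value. In the Vwf panel the highest MSTN-null pool, at 6.96, lies below the lowest wild-type pool, at 6.97, and in the other panels the genotypes overlap.

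Of the receptors, Tie1, the orphan partner of Tek, stood at 7.97, 8.17, 7.68, 8.08 and 7.81 (log2 intensity, pools 1 to 5) in MSTN-null muscle, against 8.43, 8.15, 8.45, 8.34 and 8.19 in wild-type muscle. MSTN-null pool 2 lay above the lowest wild-type pool, and pool 3 was the lowest of all 10. The means were 7.94 ± 0.20 in MSTN-null and 8.31 ± 0.14 in wild-type muscle (SD, n = 5 each), a difference of -0.37 (SE 0.0916, q = 0.0315 by limma), or 0.775-fold.

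Tek, the angiopoietin receptor, stood at 7.34, 7.31, 7.24, 7.56 and 7.59 in MSTN-null pools, against 7.80, 7.56, 7.76, 7.84 and 7.70 in wild-type pools. MSTN-null pools 4 and 5 reached the level of wild-type pool 2, the lowest of its genotype, and the other 3 lay apart. The difference was -0.33 (SE 0.0769, q = 0.0254 by limma), or 0.798-fold.

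Kdr, the main signalling receptor for vascular endothelial growth factor A, stood at 8.74, 8.64, 8.64, 8.63 and 8.79 in MSTN-null pools, against 8.88, 8.92, 9.01, 8.77 and 8.84 in wild-type pools. A single MSTN-null pool, pool 5, lay above the lowest wild-type pool. The difference of -0.20 (SE 0.0561, 0.871-fold) had a q of 0.0489 by limma, just under the threshold. The call of Kdr was lost in 13 of 18 alternative fits and that of Tie1 in 8, whereas that of Tek was lost in 5.

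Flt1, the receptor that binds the factor tightly and signals weakly, had 4 probe sets, and their differences were not of 1 size. Probe set 1419300_at stood at 7.43, 7.54, 7.50, 7.19 and 7.72 in MSTN-null pools, against 7.96, 7.83, 7.98, 8.0 and 7.85 in wild-type pools. The genotypes did not overlap, and the difference of -0.45 (SE 0.0818, q = 0.00742 by limma, 0.733-fold) was called in all 18 alternative fits. The brightest probe set, 1451756_at, differed by -0.17 (SE 0.0589, q = 0.0903). The B array's 1440926_at differed by -0.27 (q = 0.0725) and 1454037_a_at by -0.12 (q = 0.282). The 4 share a sign, and whether they read the same Flt1 transcripts was not examined.

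Of the secreted proteins, Vwf, the large glycoprotein stored by endothelial cells and by platelets, stood at 6.74, 6.77, 6.60, 6.96 and 6.72 in MSTN-null pools, against 6.97, 7.07, 7.37, 7.35 and 7.14 in wild-type pools. It was the only one of the 10 genes whose genotypes did not overlap at the brightest probe set (6.96 in MSTN-null pool 4 lay just below 6.97 in wild-type pool 1); 6.57% of all genes had pools that did not overlap. The means were 6.76 ± 0.13 in MSTN-null and 7.18 ± 0.18 in wild-type muscle (SD, n = 5 each), a difference of -0.42 (SE 0.0855, q = 0.0123 by limma), or 0.747-fold. Of 6 platelet genes, among them Pf4 and Itga2b, none was called by limma with either adjustment or had an unadjusted p under 0.05, and their median difference was -0.05. The dimmest of them stood at percentile 19.03 of all probe sets by mean level at d35. The part of platelets in the Vwf difference was not tested.

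Egfl7, an extracellular matrix protein of the endothelium, had 4 probe sets, all lower in MSTN-null muscle. The brightest, 1451427_a_at, stood at 9.19, 9.39, 9.21, 9.31 and 9.13 in MSTN-null pools, against 9.42, 9.34, 9.42, 9.37 and 9.33 in wild-type pools, a difference of -0.13 (SE 0.0556, q = 0.151 by limma). Probe set 1451428_x_at stood at 8.49, 8.64, 8.42, 8.60 and 8.42 in MSTN-null pools, against 8.83, 8.80, 8.86, 8.72 and 8.80 in wild-type pools. These 2 groups did not overlap, and the difference was -0.29 (SE 0.0565, q = 0.0110). The remaining probe sets, 1421335_a_at and 1435823_x_at, each differed by -0.15 (q = 0.114 and 0.0839). An x_at probe set may also bind related transcripts.

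None of the 4 junction and surface genes was called by limma with either adjustment, and 2 of them, Cdh5 and Pecam1, had an unadjusted p under 0.05. Of all 18193 genes, 3736 had such a p at d35. Cdh5, the adherens junction protein of the endothelium, averaged 8.40 ± 0.18 in MSTN-null and 8.67 ± 0.15 in wild-type muscle (SD, n = 5 each), a difference of -0.27 (SE 0.0892, q = 0.0831 by limma). Its other probe set, 1422047_at, differed by 0.17 (SE 0.111, q = 0.289) and was the only one of the 17 with a positive difference at d35. The Cdh5 level was thus read in opposite directions by its 2 probe sets, neither past the threshold.

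Pecam1, an adhesion molecule of endothelium, platelets and leukocytes, stood at 8.03, 8.07, 7.70, 7.90 and 7.87 in MSTN-null pools, against 8.16, 8.19, 8.18, 8.17 and 7.92 in wild-type pools (difference -0.21, q = 0.101 by limma). Wild-type pool 5 lay among the MSTN-null pools; without it the difference was -0.26 (q = 0.0488). Esam, a tight junction adhesion molecule, differed by -0.15 (q = 0.195), and MSTN-null pool 5, at 8.74, was its lowest pool. Emcn differed by -0.16 (95% interval -0.38 to 0.06, q = 0.280), and wild-type pool 2, at 7.02, was lower than every MSTN-null pool.

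Over the 17 probe sets, 6 were called, all lower in MSTN-null muscle: 1 each of Kdr, Tek, Tie1, Vwf, Flt1 and Egfl7. Of all 45037 probe sets 4.58% were called and 2.50% were called as lower. The pools of the genotypes did not overlap for 4 of the 17 probe sets, those of Vwf, 1 of Flt1 and 2 of Egfl7, against 5.25% of all probe sets. The called members were between 0.733-fold and 0.871-fold of the wild-type level. In whole muscle RNA, fewer endothelial cells and less RNA per endothelial cell cannot be told apart. Intensities are relative within an array, so a larger share of RNA from other cells cannot be told apart from them either.

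A list of other endothelial genes, none of them among the 10, was read in the same way at d35. The difference was negative for all 25 measured genes of the list (median -0.20), and 2 were called, a count to be read beside the 3.31% of all genes called as lower. Without wild-type pools 2 and 3, whose actin RNA control was the highest, 23 of the 25 were negative and 3 were called. Podxl, a sialomucin of the luminal surface, averaged 8.55 in MSTN-null and 8.92 in wild-type muscle (difference -0.37, SE 0.0867, q = 0.0238 by limma). Sox18, a transcription factor of vessel development, averaged 8.56 in MSTN-null and 8.86 in wild-type muscle (difference -0.29, SE 0.0577, q = 0.0113). The least different of the 25, Clec14a, differed by -0.01.

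Mural cells are the pericytes and smooth muscle cells that wrap vessels. Of 10 of their genes, 5 fell, none rose and 8 differed in the negative direction (median -0.26), where 3.31% of all genes were called as lower. Tagln, a smooth muscle actin-binding protein, differed by -0.42 (q = 0.00147 by limma), and Pdgfrb, the receptor that recruits pericytes, by -0.42 (q = 0.00917). Notch3, a receptor of vascular smooth muscle, differed by -0.27 (q = 0.0193) and Rgs5, a pericyte gene, by -0.25 (q = 0.0197). Abcc9 and Acta2 had positive differences of 0.08 and 0.05 and were not called. Acta2 and Tagln are also expressed outside vessel walls.

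Among 27 angiogenic ligands, receptors and NOTCH genes, 3 fell and 1 rose at d35, where 6.02% of all genes were called in either direction. The difference was negative for 21 of the 27 (median -0.07). Nrp1, the co-receptor that presents growth factor to Kdr, differed by -0.45 (SE 0.0729, q = 0.00377 by limma). Epas1, the hypoxia-inducible factor abundant in endothelium, differed by -0.41 (SE 0.0667, q = 0.00397), and Notch1 by -0.24 (q = 0.0410). Vegfd, a growth factor that acts mainly on lymphatic vessels, rose by 0.24 (SE 0.0532, q = 0.0173), and without wild-type pools 2 and 3 it was not called. The main ligand gene Vegfa differed by -0.13 (q = 0.302) and was not called. Of 4 lymphatic endothelial genes none was called by limma with either adjustment, and 3 had an unadjusted p under 0.05, as had 3736 of all 18193 genes. The difference was negative for 2 of the 4, and the median was -0.06.

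**Figure D2:**
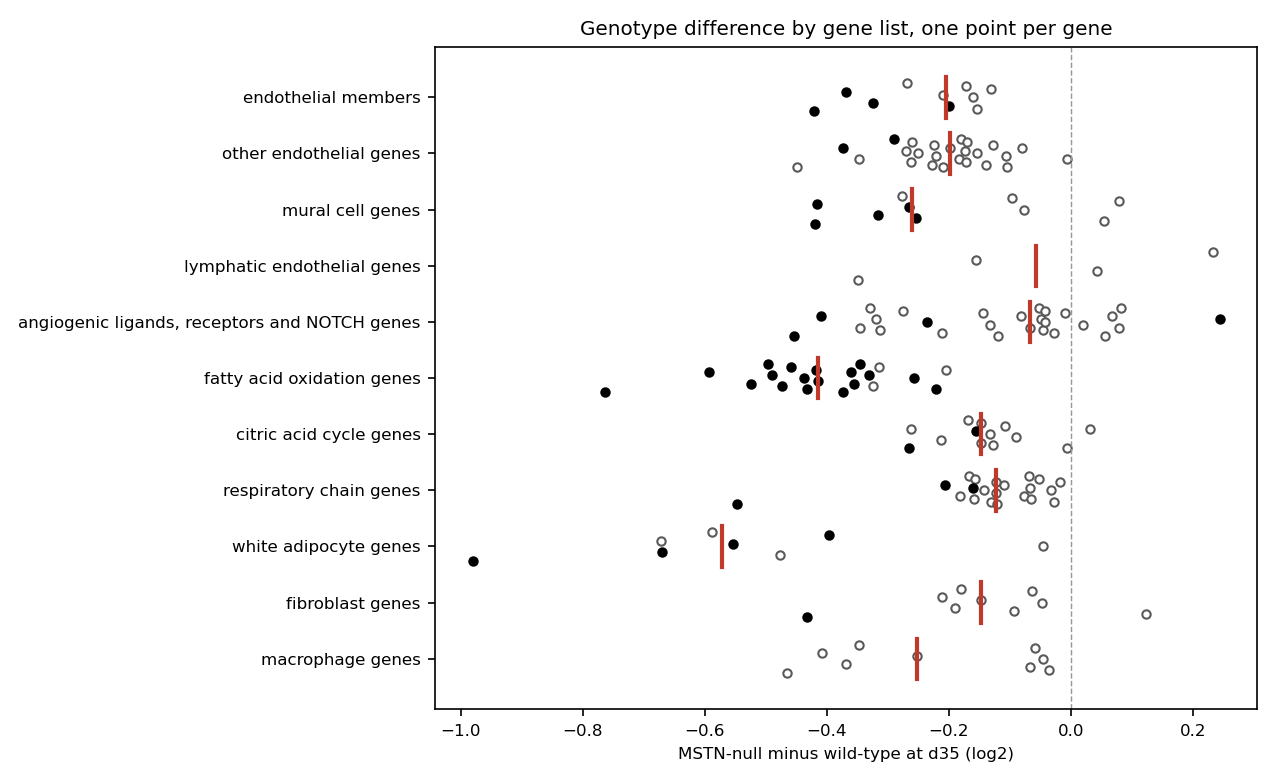
Difference in log2 intensity at d35, MSTN-null minus wild-type (x axis), with 1 point per gene read by its brightest probe set and 1 row per gene list; filled points were called (q under 0.05) and red lines are list medians. The endothelial genes lie between -0.42 and -0.13, the fatty acid oxidation genes reach further down with a median of -0.41, and the respiratory chain genes centre on -0.12.

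Oxidative and slow-fibre genes were set beside the vessel marks to see whether these follow them in the d35 muscle. Each count of called genes here stands beside 3.31% of all genes called as lower. Of 21 fatty acid oxidation genes, 18 fell, none rose and the difference was negative for all 21 (median -0.41). Acadl, a mitochondrial acyl-CoA dehydrogenase, differed by -0.52 (q = 0.000573 by limma) and Cpt2, which releases acyl groups into mitochondria, by -0.49 (q = 0.00168). Cd36, the fatty acid translocase of muscle fibres and of capillary endothelium, differed by -0.46 (q = 0.00265). Of 13 slow-twitch fibre genes, 11 fell, none rose, and the median was -1.90. The mitochondrial lists differed less: 2 of 13 citric acid cycle genes were called (Idh3b and Dlst) with a list median of -0.15, and 3 of 21 respiratory chain genes (Cox7a1, Cox6a1 and Cox4i1) with a list median of -0.12. The median of the endothelial genes, -0.20, therefore lay between that of fatty acid oxidation and those of the citric acid cycle and the respiratory chain. The differences between lists were not tested. By Benjamini-Hochberg adjustment 17 fatty acid oxidation genes and 10 slow-twitch fibre genes were called. The same adjustment called 1 citric acid cycle gene and 0 respiratory chain genes.

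The mean deviation of the 10 endothelial genes from their d35 mean was -0.11, -0.07, -0.20, -0.03 and -0.19 in MSTN-null pools 1 to 5, against 0.19, 0.01, 0.17, 0.16 and 0.07 in wild-type pools. The corresponding deviation of the fatty acid oxidation genes was -0.34, -0.20, -0.15, -0.24 and -0.10 in MSTN-null pools, against 0.17, 0.14, 0.29, 0.16 and 0.27 in wild-type pools. Both scores separated the genotypes, but the pools did not keep their order within a genotype. MSTN-null pools 3 and 5 had the lowest endothelial scores and the highest fatty acid oxidation scores of their genotype, and wild-type pool 1 had the highest endothelial score and a middling fatty acid oxidation score. The pools form a cluster of 5 per genotype, and a relation between the 2 scores from pool to pool was not tested.

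**Figure D3:**
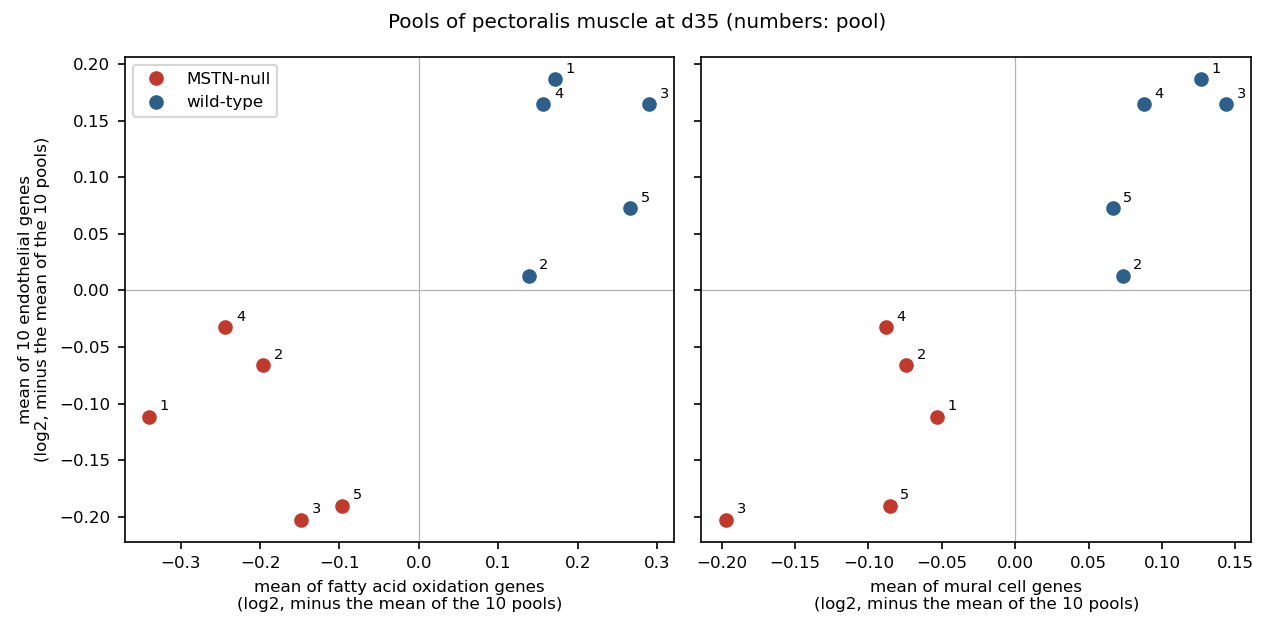
Mean deviation of the 10 endothelial genes in each d35 pool (y axis, log2) against that of the fatty acid oxidation genes (left, x axis) and of the mural cell genes (right, x axis); numbers are pools, red points MSTN-null and blue points wild-type. The genotypes form separate clusters on all axes, and within MSTN-null the pools with the lowest endothelial scores, 3 and 5, have the highest fatty acid oxidation scores.

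Markers of other cells in the muscle also had mostly negative differences. Their counts of called genes are to be read beside the 3.31% of all genes called as lower. Of 8 white adipocyte genes 4 fell (Cidec, Pparg, Fabp4 and Lipe), all 8 had a negative difference, and the median was -0.57; their pool scores ran from -0.75 to 0.12 in MSTN-null and from 0.06 to 0.51 in wild-type muscle. Fabp4 and Pparg are also expressed by capillary endothelium. All 9 macrophage genes had a negative difference (median -0.25) and none was called by limma with either adjustment. Of the 9, 3 had an unadjusted p under 0.05 by limma, as had 3736 of all 18193 genes. Macrophage scores ran from -0.39 to 0.03 in MSTN-null and from -0.19 to 0.60 in wild-type muscle. Of 9 fibroblast genes 1 fell (Dpt, by 0.43) and 8 had a negative difference, with scores from -0.19 to 0.04 in MSTN-null and from -0.13 to 0.21 in wild-type muscle. Defining markers of these cells were present in both genotypes, Adipoq at 11.03 in MSTN-null and 11.70 in wild-type muscle and Col1a1 at 11.71 in MSTN-null and 11.92 in wild-type muscle. The part of these cells in the endothelial result was not tested.

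The actin 3′ minus 5′ control, a sign of RNA integrity, ran from 0.06 to 0.21 in MSTN-null and from 0.13 to 0.58 in wild-type pools on the A array (log2), wild-type pools 2 and 3 being the highest. The Gapdh 3′ minus 5′ control on the same array ran from 0.002 to 0.16 in MSTN-null and from 0.04 to 0.18 in wild-type pools. By Gapdh, wild-type pool 2 was again the highest, but wild-type pool 3, at 0.07, lay among the other pools. Without wild-type pools 2 and 3, 1 of the 10 endothelial genes was called (Tie1, Kdr and Vwf lost their calls and Tek kept it) and 2 of the 17 probe sets, Tek and Flt1 1419300_at. The median endothelial difference was then -0.27 and all 10 genes remained negative. Across all genes the same removal left 231 genes called as lower in place of 602, and 10 of the 21 fatty acid oxidation genes in place of 18. The mural count was 3 in place of 5, the adipocyte count 0 in place of 4, the citric acid cycle count 0 in place of 2, the respiratory chain count 1 in place of 3, and the macrophage median -0.06 in place of -0.25.

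At 13.5 d.p.c. none of the 17 probe sets was called, where 0.540% of all probe sets were. By limma 3 of them had an unadjusted p under 0.05, and none passed Benjamini-Hochberg adjustment. By brightest probe set, 6 genes had a negative and 4 a positive difference, and the median was -0.02. Kdr came nearest: it stood at 9.27, 9.26, 9.16, 9.13 and 9.30 in MSTN-null embryos, against 9.41, 9.44, 9.35, 9.33 and 9.31 in wild-type embryos. The genotypes did not overlap, as for 2.40% of all probe sets, and the difference of -0.14 had a q of 0.164 by limma. Cdh5, at -0.10 (q = 0.310), was the other gene without overlap, and Egfl7 differed by 0.12 (q = 0.272). The actin control on the A array, which holds these genes, ran from 0.20 to 0.35 in MSTN-null and 0.07 to 0.21 in wild-type embryos. On the B array it ran from 0.29 to 0.32 in MSTN-null and from 0.16 to 0.23 in wild-type embryos. The part of this control in these values was not tested.

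At 17.5 d.p.c. no probe set on either array was called (0% of all), and every endothelial q was 1; 0 of the 17 probe sets had an unadjusted p under 0.05 by limma. A total of 7 genes had a negative and 3 a positive difference, and the median was -0.06. Flt1 1419300_at stood at 7.22, 7.0, 7.37, 6.97 and 6.99 in MSTN-null hindquarters, against 7.22, 7.24, 7.46, 7.19 and 7.51 in wild-type hindquarters. The pools overlapped and the difference was -0.21 (unadjusted p = 0.0510 by limma). Every endothelial probe set overlapped between the genotypes, where 0.535% of all probe sets did not. Liver genes, which mark other tissue in the dissected hindquarters, had scores from -3.74 to 0.54 in MSTN-null and from -0.59 to 1.28 in wild-type pools. All 10 of them had a negative difference, and their part in the endothelial values was not tested.

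**Figure D4:**
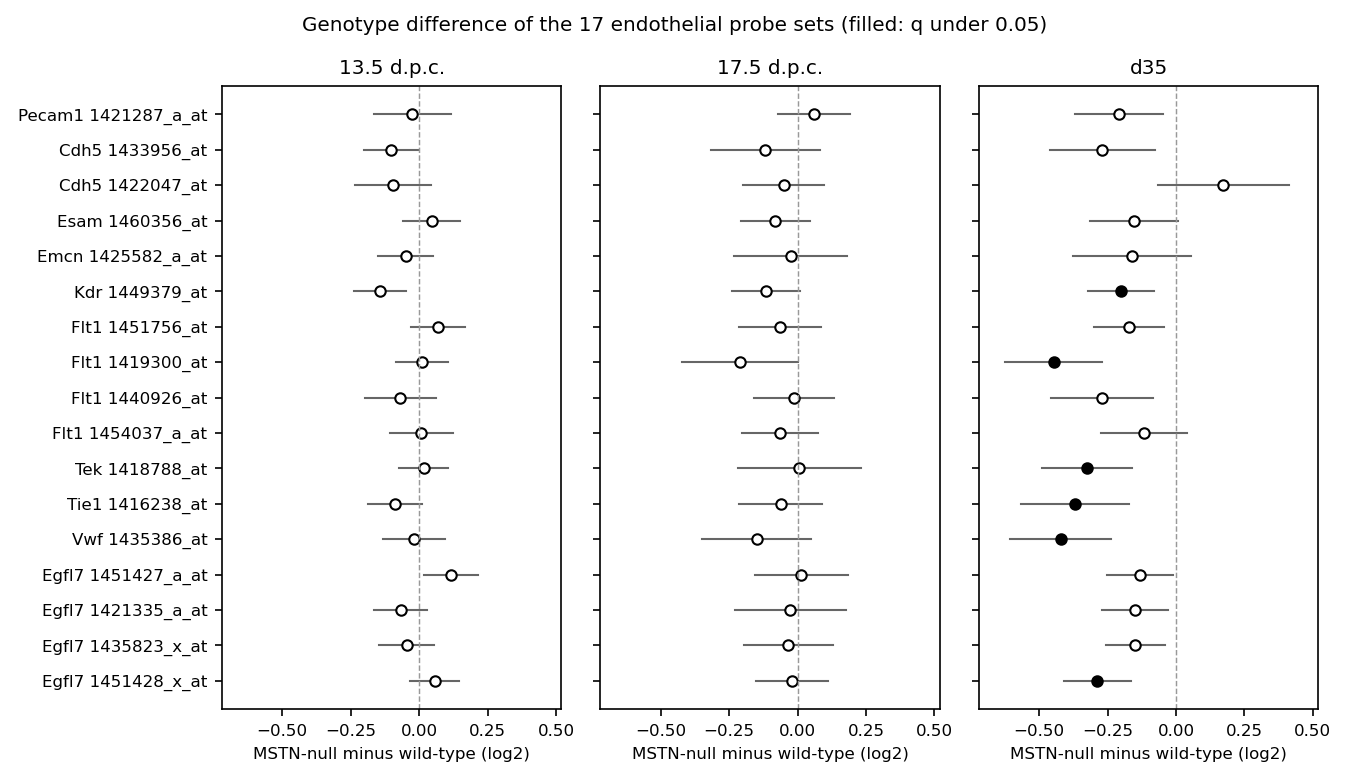
Difference in log2 intensity, MSTN-null minus wild-type (x axis), of the 17 endothelial probe sets, 1 panel per time point, with 95% intervals; filled points were called (q under 0.05). None is filled at 13.5 or 17.5 d.p.c., and 6 are filled at d35, from -0.45 for Flt1 1419300_at to -0.20 for Kdr.

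Genotype differences at separate time points were set against each other by interaction contrasts in a fit of all 30 pools. The tissue changes along with age, so these contrasts cannot tell an effect of age from an effect of tissue. The paper makes no comparisons across time points for this reason. The fit also shares its variance over tissues of unequal spread. The median SD over pools was 0.077 at 13.5 d.p.c., 0.131 at 17.5 d.p.c. and 0.0993 at d35. At the brightest probe sets none of the 10 genes was called in any of the 3 contrasts between time points, by Storey or Benjamini-Hochberg adjustment. An unadjusted p under 0.05 was found for 6 genes for d35 against 13.5 d.p.c., 4 for d35 against 17.5 d.p.c. and 0 for 17.5 against 13.5 d.p.c. The share of all genes with such a p was not counted for these contrasts, so these counts have no background to be read against. For d35 against 13.5 d.p.c. the closest was Vwf, whose difference was lower by 0.40 at d35 (q = 0.0811 by limma). Of the other probe sets, Egfl7 1451428_x_at was called at -0.34 (q = 0.0124) and Flt1 1419300_at at -0.46 (q = 0.0371), where 1.17% of all probe sets were called. With each of the 30 pools left out in turn, the Egfl7 call held in 30 fits and the Flt1 call in 16 (q up to 0.0859). For d35 against 17.5 d.p.c. 0.715% of all probe sets were called and no endothelial one; Egfl7 1451428_x_at came closest at -0.27 (q = 0.0718). For Kdr, Tek, Tie1 and Vwf, called at d35 alone, a difference from the earlier time points was thus not shown.

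The 10 genes did not all vary together from pool to pool once the mean of each genotype and time point was subtracted. Over the 30 pools, Cdh5 correlated with the mean of the other 9 at r = 0.64, Esam at 0.47, Tek and Vwf at 0.41, Tie1 at 0.31 and Pecam1 at 0.26. Emcn stood at 0.17, Kdr at -0.08, Flt1 at 0.01 and Egfl7 at 0.03. For each gene, the share of other genes with a higher r to the endothelial mean was also counted. It was 0.115% for Cdh5, 2.6% for Esam, 4.86% for Tek, 5.12% for Vwf and 12.3% for Tie1. For Pecam1 it was 17.2%, for Emcn 28.8%, for Egfl7 51.3%, for Flt1 53.9% and for Kdr 69.3%. The genes whose residuals lay closest to the endothelial mean were Gng11 (r = 0.78), Septin4 (0.76), Mest (0.72), Lmbr1 (0.72) and Bag2 (0.71). At d35 Gng11 differed by -0.18 (q = 0.129 by limma) and Mest by 0.18 (q = 0.255), and none of the 5 was called. These values describe pools of 3 different tissues, with the genes of a pool read from that pool's own arrays, and carry no test.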

How the data were processed

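Total RNA pools were hybridised to Affymetrix MOE430A and MOE430B arrays (array A and array B), giving 60 arrays for 30 pools. The authors deposited RMA-processed log2 intensities, made in R with affy (versions not given in the sources used here). Each pool's arrays were joined by its label. Control probe sets were dropped, and 100 probe sets on both arrays were read from array A. Gene names are the platform's: 34945 probe sets name 1 gene, 932 several and 9160 none; probe sets naming several genes were not used for genes. A gene was read by its brightest probe set, the highest mean over 30 pools. Each time point was fitted on its own with limma 3.58.1 (R 4.3.3), 5 MSTN-null against 5 wild-type pools. Storey q-values (lambda 0.05 to 0.95) were taken over all 45037 probe sets. The fit was tested on simulated data with independent normal noise and 50 probe sets changed at each of 1.25-fold, 1.5-fold, 2-fold and 3-fold. Changes of 1.25-fold were recovered for 78% at 13.5 d.p.c., 38% at 17.5 d.p.c. and 46% at d35. Changes of 1.5-fold were recovered for 98%, 68% and 94%, so small differences can be missed. Changes under 1.25-fold were not simulated. The q-value depends on how many probe sets change, and 2062 were called in the d35 data. The recovery shares therefore hold for the simulated setting and do not carry over to these data. Interactions used all 30 pools in 1 fit. No arrays held identical values. The number of arrays limits the precision, and RMA values are relative within an array, so RNA per muscle was not measured. Array medians on array A ran from 6.88 to 6.94 at d35, 7.78 to 7.86 at 17.5 d.p.c. and 8.05 to 8.09 at 13.5 d.p.c.

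Named genes were every endothelial probe set, at most 4 called genes per other list with the smallest q, and the 5 genes most like the endothelial mean. Genes named beyond this rule (Clec14a, Vegfa, Abcc9, Acta2, Adipoq, Col1a1, Pf4, Itga2b) were chosen after their values were seen. The endothelial genes and all lists were chosen with earlier results of these data known. Of 17 lists in all, the erythroid list had no gene called at d35 (median 0.00) and neither had the liver list (median 0.04). No probe set used here carries the symbol Mstn, so the targeted gene was not analysed here. Replicate numbers were checked as pairs: same-numbered pools of the 2 genotypes correlated between -0.172 and 0.139 at d35 in their deviations from the genotype means, so the numbers were not used as pairs. Alternatives were Benjamini-Hochberg adjustment, separate arrays, array A alone, dim probe sets left out, further quantile normalization, limma with trend and robust settings, the replicate block, 1 fit of all pools, the mean over a gene's probe sets, and each pool left out.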

Additional observations from a re-analysis of the deposited data

Results flagged for a closer look

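In groups of 5 pools, a single pool stood apart from the other 4 (gap to the nearest over the group's range above 0.71) in 6 of 102 groups, and chance gives about 1 in 20. Pecam1 was at 7.92 in wild-type pool 5 at d35, where the other wild-type pools lay between 8.16 and 8.19. Cdh5 1433956_at was at 8.36 in wild-type pool 3 at 17.5 d.p.c., with the others between 7.99 and 8.02, and at 8.31 in MSTN-null pool 4 at 13.5 d.p.c., with the others between 8.35 and 8.36. Among the wild-type pools of 13.5 d.p.c., Vwf was at 7.07 in pool 4 (others 6.88 to 6.93), Egfl7 1435823_x_at at 9.31 in pool 4 (others 9.11 to 9.16) and Emcn at 8.49 in pool 2 (others 8.25 to 8.30).

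The genotype difference itself differed between the d35 pectoralis and the 13.5 d.p.c. embryos for 2 endothelial probe sets by limma's interaction test. Age and tissue cannot be told apart in this contrast. Flt1 1419300_at was lower by 0.46 in its difference at d35 (value -0.46, q = 0.0371) and Egfl7 1451428_x_at by 0.34 (value -0.34, q = 0.0124). The brightest probe sets of Flt1 (-0.24, q = 0.150) and Egfl7 (-0.25, q = 0.164) had the same sign and were not called.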

How the results depend on the processing

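At d35 no endothelial probe set changed sign in 305 recomputed values, and the median difference of the 10 genes stayed between -0.27 and -0.18. The calls were less stable. Member genes called at d35 were 4, against 2 with the replicate block, 1 without wild-type pools 2 and 3 together, and 1 to 4 with each pool left out. Member probe sets called at d35 were 6, against 2 without wild-type pools 2 and 3 together and 3 to 6 with each pool left out. Benjamini-Hochberg adjustment, further quantile normalization and limma with trend and robust settings gave 3 genes, 1 fit of all 30 pools gave 5, and the mean over a gene's probe sets gave 6. Flt1 1419300_at was called in 18 of 18 alternatives, Vwf and Egfl7 1451428_x_at in 17 (lost without wild-type pools 2 and 3, q = 0.0516 and 0.0775), Tek in 13, Tie1 in 10 and Kdr in 5. Tek was not called without MSTN-null pool 1, 2 or 3 or wild-type pool 1 or 3 (q 0.0529 to 0.0789). Tie1 was not called without MSTN-null pool 1, 3 or 5 or wild-type pool 1, 3 or 4 (q 0.0520 to 0.102), and Kdr was called with MSTN-null pool 5 or wild-type pool 4 left out but with no other single pool left out (q 0.0598 to 0.144). Replicate numbers at 17.5 d.p.c. correlated from -0.199 to 0.485, and the replicate block changed no call there or at 13.5 d.p.c. Member genes whose genotype effect differs between time points were 0, and 0 to 1 with each pool left out; the gene was Vwf, without MSTN-null d35 pool 4 (q = 0.0456) or wild-type d35 pool 1 (q = 0.0422). The cause of these shifts was not tested.

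Before birth no call appeared in any alternative, and differences close to 0 changed sign with the pool left out. At 13.5 d.p.c. the ranges were -0.015 to 0.034 for Flt1 1419300_at, -0.018 to 0.060 for Flt1 1454037_a_at, -0.012 to 0.038 for Tek, -0.055 to 0.015 for Vwf and -0.056 to 0.046 for Pecam1; further quantile normalization gave -0.00768 and -0.013 for the 2 Flt1 probe sets. At 17.5 d.p.c. they were -0.046 to 0.019 for Flt1 1440926_at, -0.074 to 0.066 for Tek, -0.10 to 0.033 for Emcn, and -0.040 to 0.056, -0.096 to 0.026, -0.073 to 0.028 and -0.052 to 0.0082 for Egfl7 1451427_a_at, 1421335_a_at, 1435823_x_at and 1451428_x_at.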
